A study of Homo sapiens with 2 samples.

Results

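In RNA recovered with a catenin immunoprecipitation (IP) from MDA-MB-231 cells, 969 peaks carried the label of coding sequence and no other label. They were chosen as the rows of the deposited peak table whose region label is coding sequence alone, on 1 transcript per gene symbol, the one with the most tags over all its peaks. They made up 39.7% of the 2440 peaks kept this way (exact binomial interval 37.8 to 41.7%) and lay on 723 of 1658 symbols. Over every listed transcript the label was given to 2922 of 6195 rows. MDA-MB-231 is a long-established line of human triple-negative breast cancer cells of mesenchymal character. The study compared 1 library of the IP (the title writes B-catenin) with 1 input library of the same line, for which the labels give no treatment, to screen for long noncoding RNAs that bind catenin. Only the IP's peak list was analysed here, so the values have no replicates and conditions could not be tested against each other.

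Beta-catenin joins cadherins to the actin cytoskeleton at adherens junctions and is the transcriptional effector of Wnt signalling. An RNA IP recovers transcripts held by the protein or by complexes around it, and sheared RNA gives enriched stretches rather than single binding sites. Coding sequence is the translated part of an mRNA, flanked by a 5' and a 3' untranslated region, and is longest in mRNAs of giant proteins. Tags are the sequenced fragments that the authors counted in a peak, and tags per kb are tags divided by peak length. Fold is the enrichment that the authors' peak caller gave each peak and is used only to describe and rank peaks within this list.

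The label was first checked against position. On an mRNA, a peak in the 3' untranslated region must lie downstream of coding sequence. Of 100 peaks labelled 3' untranslated alone on genes that also had a coding-labelled peak, 54 lay upstream of every coding-labelled peak of the same transcript. The split followed the strand of the gene, taken from RefSeq (GRCh38.p14) for 697 plus-strand and 694 minus-strand symbols. In minus-strand genes 45 of 45 such peaks lay upstream, and in plus-strand genes 0 of 40 did. Peaks labelled 3' untranslated plus coding behaved alike, with 77 of 77 upstream in minus-strand genes and 0 of 38 in plus-strand genes. Peaks labelled 5' untranslated plus coding lay upstream in 31 of 31 cases on plus-strand genes and in 0 of 2 on minus-strand genes. In minus-strand genes the labels and the positions therefore ran in opposite directions, while in plus-strand genes they ran in the same direction.

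The mix of labels differed with strand as well. The coding label was given to 502 of 1025 peaks of plus-strand genes, 49.0% (exact binomial interval 45.9 to 52.1%), against 304 of 1026 of minus-strand genes, 29.6% (26.8 to 32.5%). The label of 3' untranslated alone went to 13.9% of peaks on plus-strand genes and to 43.9% on minus-strand genes, and the label of 5' untranslated plus coding to 16.8% and 0.78%. Examples on minus-strand genes were HNRNPU, a nuclear RNA-binding scaffold, and ABL2, a nonreceptor tyrosine kinase. The coding label of HNRNPU sat at nt 4460 to 5411 with 26 tags, downstream of a peak at nt 168 to 3673 with 437 tags that was labelled 3' untranslated. In ABL2 it sat at nt 9780 to 10796, downstream of 3 peaks labelled 3' untranslated or 3' untranslated plus coding. Label and position could not both hold for the 123 genes with a 3' label upstream of every coding-labelled peak, which held 181 of the 969 peaks. Of these genes 104 were on the minus strand, 0 on the plus strand and the others were of unknown strand. The term "coding-labelled" is used below for this reason, and results are given by strand where the strand moved them.

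**Figure D1:**
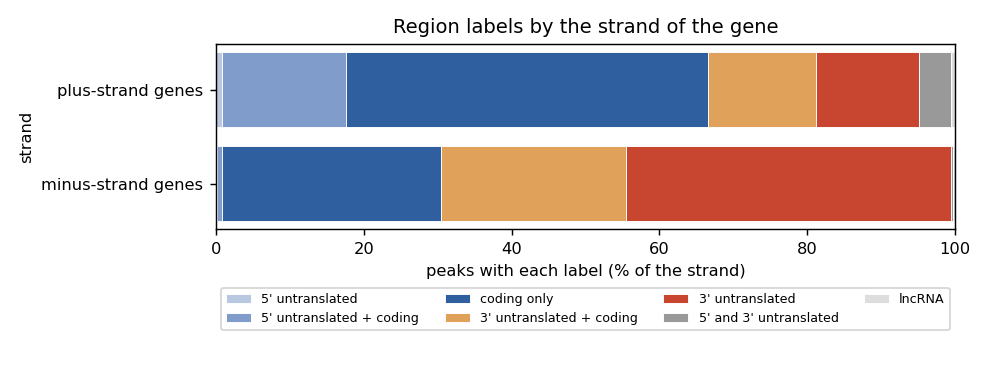
Share of peaks with each region label (x axis, % of the peaks on that strand) for plus-strand genes (1025 peaks) and minus-strand genes (1026 peaks), 1 transcript per gene in 1 IP library. The coding-only label covers 49.0% of the upper bar and 29.6% of the lower, and the 3' untranslated label 13.9% and 43.9%.

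The label also varied with the transcript. Of the 969 peaks, 538 were listed with the same length, summit, tags, fold and score on at least 1 further transcript of the symbol. In 470 of these, 87.4%, every copy was coding-labelled. The other 68 had another label on another transcript, most often 3' untranslated plus coding (25) or 3' untranslated (23). On plus-strand genes 14 of 273 repeated peaks had such a second label, and on minus-strand genes 45 of 166. A further 185 symbols had a coding-labelled peak only on a transcript that was not kept.

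Coding-labelled peaks were many and mostly small. They held 39505 tags, 29.5% of the tags over the 2440 peaks. Lengths ran from 335 to 16902 nt with a median of 889, and 583 peaks (60.2%) were shorter than 1000 nt. The median peak had 24 tags (quartiles 16 and 42), and 378 peaks (39.0%) had fewer than 20. Such counts are imprecise: the shortest peak, at nt 1543 to 1877 of DCLRE1B, which encodes a nuclease of telomeres, had 11 tags (exact Poisson interval 5.49 to 19.7). HIVEP2, HEATR1, KDM4B and PPWD1 had the next shortest peaks, 352 to 364 nt with 11 or 12 tags.

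At the other end, 56 peaks had at least 100 tags, and the 155 richest peaks held 50% of all coding-labelled tags. The 10 richest held 13.3%. Longer peaks had more tags (Spearman's rho across the 969 peaks 0.89) but only somewhat more tags per kb (0.34); the peaks come from 1 library and are not independent replicates. The median density was 27.0 tags per kb, with quartiles of 22.7 and 35.2 and a minimum of 17.4.

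Set beside the other labels, coding-labelled peaks were like those labelled 3' untranslated alone. Medians were 889 against 809 nt, 24 against 22 tags and 27.0 against 26.9 tags per kb. Of the peaks labelled 3' untranslated alone, 450 were on minus-strand genes, where the label is in doubt, and 142 on plus-strand genes. The likeness is therefore one of labels and is not shown for 3' untranslated sequence itself. Peaks labelled 5' untranslated plus coding had 32.7 tags per kb, those labelled 3' untranslated plus coding 33.5, and those reaching both untranslated regions 62.5. The labels that span a boundary go with longer peaks, of 977, 1292 and 2008 nt. Density and fold of coding-labelled peaks differed little with strand: medians were 27.1 and 26.8 tags per kb and a fold of 7.31 and 6.95 on plus-strand and minus-strand genes. Median length was 905 and 846 nt. The interval of 861 to 922 nt belongs to the median of all coding-labelled peaks. None is given for either strand, so the difference in length was not tested.

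The median fold was 7.05 and the highest 52.67. A fold of at least 10 was reached by 237 peaks, 24.5% of the coding-labelled peaks, against 19.2% of those labelled 3' untranslated alone and 32.6% of those labelled 3' untranslated plus coding. Whole multiples of 0.5788, to within 0.0051, made up the folds of 759 coding-labelled peaks (78.3%), against 69.4% and 53.4% in those classes. The 210 peaks off these multiples were denser, with a median of 33.7 against 25.7 tags per kb, and had a lower fold, 6.79 against 7.52. Across the 969 peaks fold and density had a Spearman's rho of 0.68, and some of the densest peaks had a low fold.

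Positions depended on strand. On plus-strand genes the median coding-labelled peak began at nt 1212 of the transcript (quartiles 526 and 2466), and 23.9% began within the first 500 nt. On minus-strand genes the median start was nt 3015 (quartiles 1769 and 4788), and 5.92% began that early. Since the end from which nt are counted is in doubt for minus-strand genes, density along the transcript is given by strand. On plus-strand genes the 120 peaks that began within nt 1 to 500 had a median of 29.7 tags per kb. The 100 at nt 501 to 1000 had 26.0, the 128 at nt 1001 to 2000 had 26.5 and the 95 at nt 2001 to 4000 had 27.3. The 47 at nt 4001 to 8000 had 27.6 and the 12 at nt 8001 to 20000 had 23.2. On minus-strand genes the 18 peaks at nt 1 to 500 had 25.1, the 19 at nt 501 to 1000 had 24.7 and the 59 at nt 1001 to 2000 had 30.3. The 108 at nt 2001 to 4000 had 28.6, the 74 at nt 4001 to 8000 had 26.1 and the 26 at nt 8001 to 20000 had 23.1. The quartiles of these bins overlapped within each strand. Only 29 peaks on 20 genes began past nt 10000, and 4 of these were on SYNE2, which encodes the nuclear envelope linker nesprin-2. The summit lay near the middle of the peak, at a median of 48.9% of its length (quartiles 35.4 and 60.2%).

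The mRNA of AHNAK, a giant scaffold protein beneath the plasma membrane, had the longest and richest peak. It covered nt 1500 to 18401 of ENST00000378024 with 1250 tags (Poisson interval 1182 to 1321), 74.0 tags per kb and a fold of 27.78. The other 45 tags of the gene lay in a peak at nt 1 to 1476 that was labelled 3' untranslated plus coding. AHNAK is therefore among the genes for which label and position could not both hold. The same is true of, among others, DST, PRKDC, FAT1, HUWE1, USP34, SMG1, NBPF9 and NBPF15, which are described below. DYNC1H1, the heavy chain of cytoplasmic dynein, had 2 long peaks that nearly touched, nt 231 to 5883 with 353 tags and nt 5902 to 12213 with 436, both at a fold of 28.36. SRRM2, a scaffold of nuclear speckles, had 416 tags in a peak of 6382 nt at a fold of 38.2. BDP1, a subunit of the RNA polymerase III factor TFIIIB, had 372 tags in 7203 nt at a fold of 18.52. FLNA, the actin crosslinker filamin A, had 303 tags at nt 3754 to 8112 but a fold of only 4.1. The golgin GOLGB1 and the kinetochore protein CENPF had 251 and 250 tags, both at a fold of 20.84.

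Density picked out other genes. The densest peak was on PKM, the glycolytic pyruvate kinase, with 213 tags in 1188 nt (179 tags per kb, interval 156 to 205), and it had the lowest fold of all 969 peaks, 2.55. AP3D1, a subunit of the AP-3 vesicle adaptor, followed at 162 tags per kb and a fold of 11.96. DDX27, an RNA helicase, had 102 tags per kb at a fold of 7.22, and the autophagy receptor gene CALCOCO2 had 97.2 at 2.85. BAZ2A, a subunit of a nucleolar chromatin remodelling complex, was high on both measures, with 129 tags per kb and a fold of 43.99. Only 16 peaks reached 80 tags per kb, and 10 of them had a fold off the multiples described above. Of these 16, 6 were on NBPF genes.

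**Figure D2:**
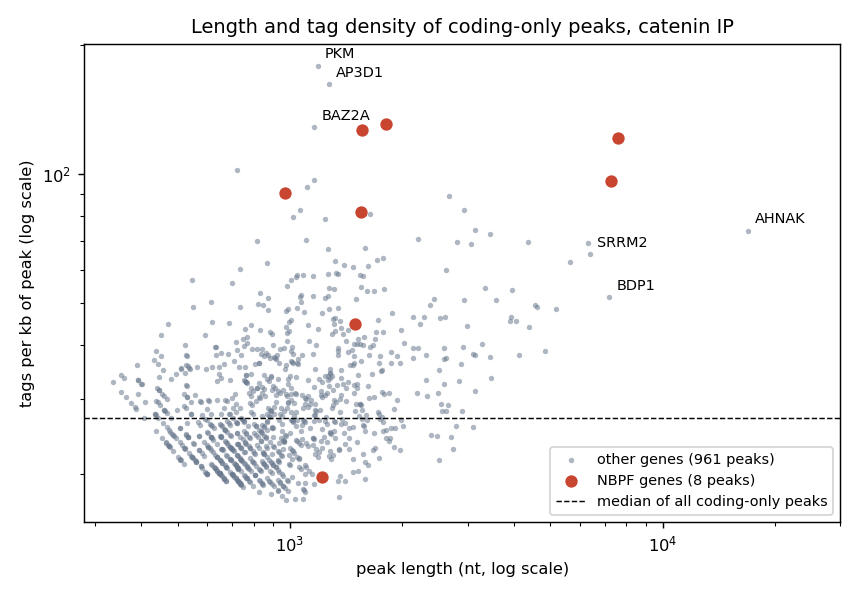
Tags per kb (y axis, log scale) against length in nt (x axis, log scale) for the 969 coding-labelled peaks of 1 IP library, with the 8 peaks of NBPF genes in red and the median of 27.0 tags per kb dashed. The cloud lies mostly below 50 tags per kb, AHNAK stands alone at 16902 nt, and 6 of the 8 NBPF peaks lie above 80 tags per kb; the oblique rows at lower left are peaks of equal small tag number.

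Among the 16 symbol families examined, NBPF held the most coding-labelled tags and the highest fold. NBPF genes are recent, near-identical copies built of tandem repeats of the Olduvai domain. Of 14 protein-coding NBPF symbols in RefSeq 8 had any peak and 7 a coding-labelled one, and their 8 peaks held 2370 tags, 6.0% of all coding-labelled tags (exact binomial interval 5.77 to 6.24%). Most of these tags, 2042, lay on the 4 minus-strand members, NBPF9, NBPF10, NBPF14 and NBPF15, for which the label is in doubt. Among plus-strand genes alone the family held 0.47% of the coding-labelled tags (91 tags, on NBPF12 and NBPF19), and among minus-strand genes 14.3%. Among the other symbol families examined, the CHD genes held 1.58% and the single dynein gene DYNC1H1 2.0%. Of the 10 highest folds, 6 were NBPF peaks.

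By member, NBPF10 had 925 tags at nt 3524 to 11136 (122 tags per kb, fold 49.78) and 127 at nt 1725 to 3275 (81.9, fold 48.04). NBPF14 had 704 tags at nt 1799 to 9087 (96.6 tags per kb, fold 51.52), NBPF26 had 237 (131, fold 50.94) and NBPF9 198 (127, fold 52.67). NBPF15 stood at 88 tags and a fold of 37.32 and NBPF19 at 67 tags and 15.63. NBPF19 also had 953 tags at 107 tags per kb and a fold of 46.88 in a peak labelled 3' untranslated plus coding. NBPF12 did not share this level, with 24 tags, 19.7 tags per kb and a fold of 5.79. NBPF20, the eighth member, had its 1516 tags in a peak labelled 3' untranslated plus coding. No source used here says how the authors assigned reads among such copies, so the members cannot be counted as separate observations. The family's share fell to 3.07% when each symbol was represented by its transcript with the highest fold, because the main peak of NBPF10 then spans the 5' untranslated label and NBPF9 and NBPF19 lose the coding label.

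Most genes had a single coding-labelled peak, and a small number were covered by strings of them. Of the 723 genes 571 had 1 peak and 152 had several, 21% (exact binomial interval 18.1 to 24.2%). These 152 genes held 398 peaks, 41.1% of the class. With 81 of 377 plus-strand genes (21.5%) and 47 of 224 minus-strand genes (21.0%), strand did not move this share. Peaks of such genes had the same median density as lone peaks, 26.9 against 27.0 tags per kb, and were slightly longer, 932 against 862 nt. At least 3 peaks were found on 53 genes, and at least 5 on 9. In 494 of the 723 genes every listed peak was coding-labelled. In the other 229 the coding-labelled share of a gene's tags had a median of 48.3%.

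PLEC, the cytolinker plectin, had the most, 8 peaks between nt 1105 and 13442 of ENST00000322810. Their tags in order of position as deposited were 63, 41, 104, 21, 90, 38, 59 and 37. Density was highest in the third, at nt 4119 to 5228, with 93.7 tags per kb (interval 76.6 to 114) and a fold of 49.2. It was lowest in the next peak by deposited position, 18 nt away, at 25.9 (16.0 to 39.5) and a fold of 8.10. These intervals do not overlap.

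MACF1, which crosslinks microtubules and actin, had 7 peaks with 449 tags from nt 281 to 15840, and the last, 4383 nt long, held 193 of them. UBR4, a giant ubiquitin ligase of the N-degron pathway, also had 7 peaks, with 211 tags and 20.9 to 39.5 tags per kb. HUWE1, a HECT-domain ubiquitin ligase, had 6 peaks with 244 tags, and the peak at nt 6813 to 8208 stood at 61.6 tags per kb against 19.5 in that at nt 10676 to 11340. SYNE2 had 6 peaks with 189 tags, spread thinly at 19.1 to 29.2 tags per kb over nt 3037 to 18203. UTRN, the dystrophin relative utrophin, had 6 peaks with 178 tags, rising to 41.3 tags per kb at nt 2906 to 4598. FAT1, a giant protocadherin, had 5 peaks with 141 tags, the deubiquitinase gene USP34 5 with 114, and TRRAP, a scaffold of histone acetyltransferase complexes, 5 with 87. In TRRAP the 5 peaks had 14 to 22 tags each, and the intervals of the densest and the sparsest overlapped.

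Within the 53 genes with at least 3 peaks, the densest peak had a median of 1.59 times the density of the sparsest, from 1.06 in CEP350 to 3.62 in PLEC. In 16 of them, among them EP300, EP400, MYO10, DST and PRKDC, the intervals of those 2 peaks did not overlap. These intervals cover counting error only, and the pair was picked as the extremes of each gene. DST, the plakin dystonin, had 4 peaks with 503 tags that covered 94.8% of nt 2011 to 14759. RANBP2, a giant nucleoporin, had 4 covering 97.7% of nt 1933 to 9365, while the 4 of HERC2, a ubiquitin ligase, covered 30.6% of nt 4314 to 13361.

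**Figure D3:**
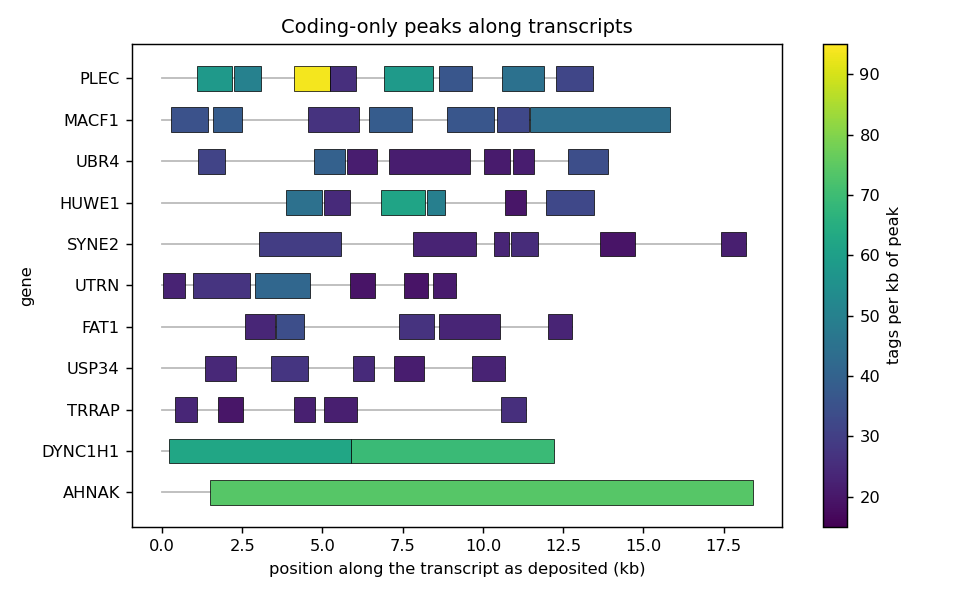
Coding-labelled peaks (boxes, width to scale, colour for tags per kb) against position along the transcript in kb as the deposited table gives it, for the 9 genes with at least 5 such peaks and for AHNAK and DYNC1H1. The third peak of PLEC is the brightest at 93.7 tags per kb, the boxes of TRRAP and USP34 are uniformly dark, and AHNAK is a single box of 16902 nt; for minus-strand genes, such as FAT1, HUWE1, USP34 and AHNAK, the direction of the axis is in doubt.

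The 246 gaps between neighbouring coding-labelled peaks had a median of 565 nt (quartiles 166 and 1115). Of these, 40 (16.3%) were under 100 nt, 116 (47.2%) under 500 nt and 25 over 2000 nt. The closest pairs were on PCM1, a centriolar satellite protein, 2 nt apart at nt 5221 and 5224, and on MYO5C, a myosin, and RIF1, a regulator of replication timing, 9 nt apart in each. The summits of neighbouring peaks were a median of 1712 nt apart, and at least 567 nt. The widest gap was 10546 nt on MDN1, an AAA ATPase of ribosome assembly. Its peak at nt 2893 to 3398 had 12 tags and that at nt 13945 to 16380 had 125. KMT2D and KMT2C, histone H3 lysine methyltransferases, had gaps of 9285 and 5298 nt, BIRC6 one of 6944 nt and ZFHX3 one of 6158 nt. The median gap was 526 nt on plus-strand and 637 nt on minus-strand genes. Joining peaks under 100 nt apart, a setting added after the data were seen, left 136 genes with several peaks and a median gap of 724 nt.

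**Figure D4:**
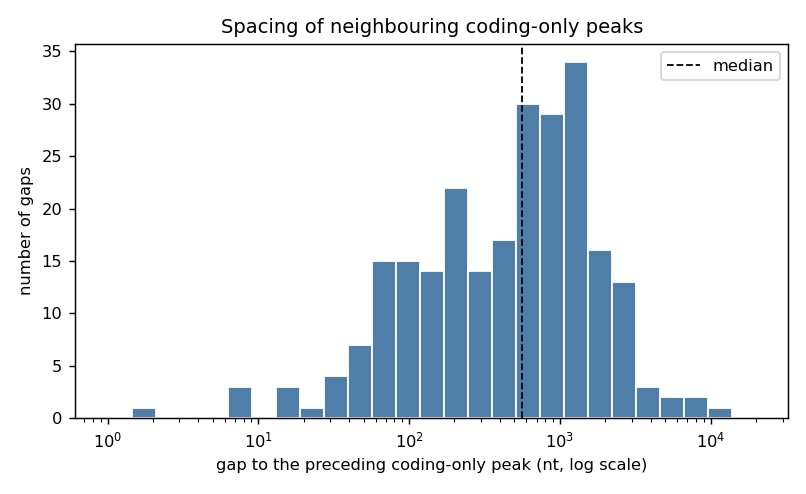
Number of gaps (y axis) by gap length in nt (x axis, log scale) for the 246 pairs of neighbouring coding-labelled peaks on 1 transcript. The dashed median is at 565 nt, and the gaps run from 2 to 10546 nt.

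Gene groups were read against the background share: 43.6% of all symbols with a peak had a coding-labelled one, 54.1% on the plus strand and 32.3% on the minus strand. The lists had been chosen with earlier results known and favour giant proteins, so their counts are descriptions. Giant proteins and cytoskeletal linkers had a coding-labelled peak in 14 of 17 listed cases, in 6 of 8 on the plus strand and 7 of 7 on the minus strand. They held 10.3% of the tags, led by AHNAK and DST, with a median of 36.0 tags per kb against 27.6 over all 723 genes. Among the listed giants without the label, SPTBN1 (spectrin, 1052 tags) and MAP1B (a microtubule-associated protein, 1313 tags) had single peaks that reached both untranslated labels.

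Motor proteins had the label in 14 of 19 cases (5 of 6 plus, 8 of 12 minus), led by DYNC1H1 with 789 tags and by the kinetochore kinesin CENPE with 225. MYH9, the heavy chain of nonmuscle myosin, had none, since its 1387 tags lay in a peak labelled 3' untranslated plus coding. Genes of mitosis, centrosomes and DNA replication had it in 19 of 24 cases (9 of 11 plus, 8 of 11 minus). They were led by PRKDC, the DNA-dependent protein kinase, with 300 tags in 3 peaks, and CENPF with 250. TOP2A, a DNA topoisomerase, had 238 tags at 89.0 tags per kb.

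Chromatin regulators, the longest list with 64 members, had the label in 41 of 54 listed cases, 75.9%. Their 72 peaks held 7.89% of the tags. On the plus strand 20 of 21 had the label, and on the minus strand 13 of 20. EP300, the histone acetyltransferase that beta-catenin recruits as a coactivator, led with 256 tags in 4 peaks, of which that at nt 4707 to 6488 had 114 tags and a fold of 35.89. CHD4, a nucleosome remodelling ATPase, followed with 243 tags in 1 peak of 82.8 tags per kb. SMARCA4, an ATPase of the SWI/SNF complex, had 133 tags at a fold of 34.6. By symbol, 6 CHD genes had 12 coding-labelled peaks with 625 tags, and the KMT2 and SETD genes had 13 with 473.

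Ubiquitin ligases and deubiquitinases had the label in 16 of 23 cases (4 of 6 plus, 7 of 12 minus) with 47 peaks, led by HUWE1 and UBR4. Their median density, 27.3 tags per kb, was close to that of all genes. Kinases had it in 12 of 20 cases (4 of 7 plus, 6 of 10 minus), led by PRKDC and by WNK1, a regulator of ion transport, with 215 tags in 3 peaks. A-kinase anchoring proteins had it in 4 of 7 (4 of 6 plus, 0 of 1 minus), led by AKAP13 with 147 tags in 4 peaks and AKAP9 with 136 in 3. AKAP17A, a splicing-associated member outside that list, had 88 tags at a fold of 28.94. Matrix, integrin and cadherin genes had it in 7 of 12 (2 of 5 plus, 3 of 5 minus), led by FAT1 and the matrix glycoprotein gene TNC with 90 tags in 3 peaks. Of 3 collagen genes with a peak, COL6A1 alone had the label, with 29 tags.

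Splicing and RNA-binding proteins had the lowest share of the lists with at least 10 listed genes, 5 of 24 (2 of 12 plus, 3 of 10 minus). The plus-strand share, 16.7%, was below the 54.1% of all plus-strand symbols. The minus-strand share, 30%, was close to the 32.3% of all minus-strand symbols. Beyond SRRM2, the labelled genes were SMG1 (92 tags in 4 peaks), SON (37 in 3), ACIN1 (32) and HNRNPU. The other 19 carried labels that touch or lie in an untranslated region, 17 of them at least 1 label that spans a boundary with coding sequence or takes in both untranslated regions. SON, a speckle scaffold, shows both: its coding-labelled peaks had 11 to 13 tags each, against 68 and 176 in its 2 boundary peaks. Nuclear transport and translation factors had the label in 9 of 22 cases (5 of 9 plus, 4 of 10 minus), led by RANBP2 (211 tags) and the importin gene IPO7 (100).

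On the study's own target, CTNNB1 had no coding-labelled peak, since its single peak reached both untranslated labels. Wnt pathway genes had the label in 5 of 13 cases, in 4 of 5 on the plus strand and 1 of 7 on the minus strand. These were EP300, CREBBP (44 tags in 2 peaks), the tankyrase TNKS2 (17), the destruction complex scaffold APC (15) and the transcription factor TCF7L2 (12). Adherens and tight junction genes had it in 8 of 13 cases, close to the background within each strand (5 of 8 plus, 1 of 3 minus), led by TJP1, the scaffold ZO-1 (128 tags in 2 peaks), and LMO7 (108 in 2). Zinc finger genes of the ZNF series were the largest symbol family examined, with 510 protein-coding symbols in RefSeq. The label was found on 16 of 40 listed genes, 40%, near the 43.6% of all symbols. Their 20 peaks held 1.23% of the tags, led by ZNF462 (95 tags in 3 peaks) and ZNF609 (63). USP deubiquitinase genes had it in 10 of 14 cases, 71.4%. Symbol families were not split by strand here.

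**Figure D5:**
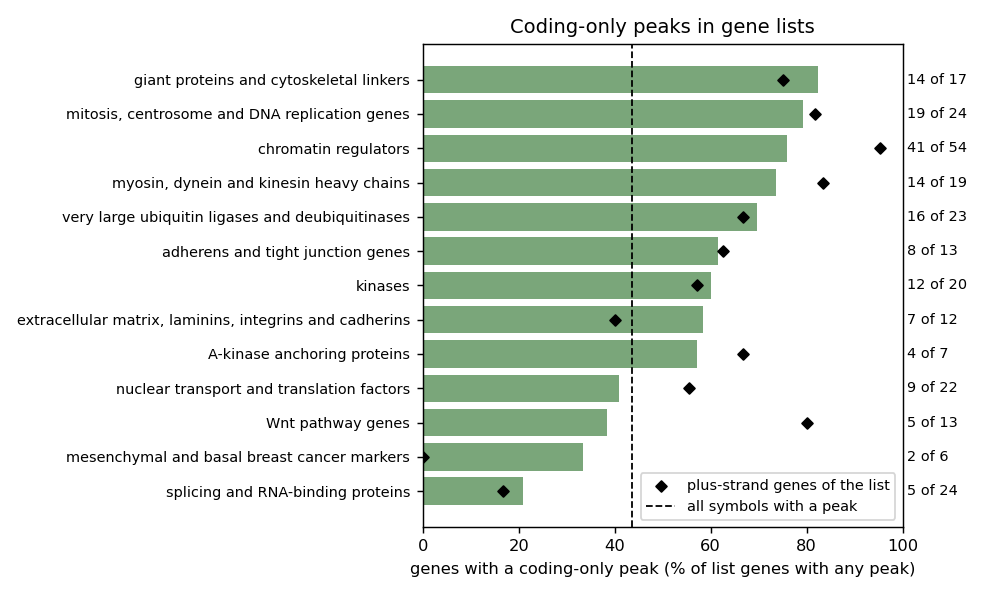
Share of the listed genes of each gene list that had a coding-labelled peak (bars, x axis in %, counts at right), with the same share for plus-strand genes only (diamonds) and the 43.6% of all symbols dashed. Giant proteins stand at 14 of 17 and splicing proteins at 5 of 24, and the Wnt diamond (4 of 5) lies far above its bar (5 of 13).

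As for the identity of the cells, 6 of 18 mesenchymal and basal breast cancer markers had any peak. The label was found on 2 of these 6, among them ZEB2 with 34 tags, while FN1 and EGFR had peaks with other labels only. None of 15 luminal epithelial and none of 12 immune and blood markers had any peak. The list holds only enriched regions, so absence from it is no measure of expression. No peak sequence is shown, since no genome or transcript sequence was used here.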

How the data were processed

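One list of peaks along Ensembl transcripts, from 1 IP library, was analysed; the input library was not analysed here. Tag counts are whole numbers per peak as deposited by the authors, with no scaling to depth. Fold is the ratio given by the authors' peak caller, and a score whose column name is lost was used as deposited, only to filter. Positions and lengths are in nt along the transcript, per the file headers. The submitters' processing notes name hg18. No source used here gives the aligner, the peak caller or the annotation. Library depth is unknown.

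For each symbol the transcript with the most summed tags was kept (ties: lowest identifier). A gap is the number of nt between neighbouring peaks. Strand came from a RefSeq promoter table (GRCh38.p14). RefSeq held 693 of the 723 symbols, and 22 more under an older name; 8 were not found. One symbol turned into a date was not named. Intervals are exact (Poisson for tags, Clopper-Pearson for shares), at 95%, and cover counting error only, since without molecular identifiers a tag is not an independent molecule. Python 3.11.15, pandas 2.3.3 and scipy 1.17.1 were used. Transcript choice, gap and multiplicity steps were tested on simulated data and returned the planted values.

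Genes named were the 10 highest by tags, fold or density, those with several peaks, the extremes of length and gap, NBPF members and the leading members of 15 lists and 16 symbol families. Of the 53 genes with at least 3 peaks not all are named. HNRNPU, ABL2, SON, CEP350, HERC2 and the genes named for lacking the label were chosen after their values were seen. The members and lists were chosen with earlier results of these data known. Alternatives were another transcript choice, every transcript, a fold of at least 4, merged symbols and no NBPF genes. The score minimum, joining of close peaks, strand and label agreement were added after seeing the data. Some named items are not reported here.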

Additional observations from a re-analysis of the deposited data

How the results depend on the processing

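Of 99 values recomputed under 10 alternatives, 71 stayed within the 95% interval of the main value or, for counts, within 1.5 times it, and 28 did not. The score, strand, joining and label settings were chosen after seeing the data. Each transcript counted on its own gave 2922 coding-labelled peaks (47.2% of peaks), 442 transcripts with several and an NBPF share of 2.93%; more units are counted by construction. The transcript with the highest fold gave an NBPF share of 3.07%. A score of at least 100 left 301 peaks (35.7%), 39 genes with several and 75 list genes (147 in the main count), and raised the median length to 1416 nt, tags to 55, density to 38.8 tags per kb, fold to 12.16 and the NBPF share to 9.40%; transcripts were chosen anew after the score filter. Plus-strand genes alone gave 502 peaks (49.0%), 81 genes with several, 68 list genes and an NBPF share of 0.47%. Minus-strand genes alone gave 304 peaks (29.6%), 47, 58 and 14.3%, with a median length of 846 nt and 22.5 tags. Fewer genes are counted by construction, and why the share of labels moved was not tested. Joining peaks under 100 nt apart gave a median gap of 724 nt. Leaving out peaks with another label elsewhere gave an NBPF share of 6.35%. A fold of at least 4, merged symbols and leaving out NBPF moved no value past its limit. Merging joined only symbols with a peak of the same start, end and tags, and left 968 peaks. It could not show the effect of copies listed at different positions, such as RGPD5 and RGPD6. No paired analysis was possible because the IP and the input have 1 library apiece. Few tags limit single peaks: 39.0% have fewer than 20.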

Other observations

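The KEGG pathways that the authors joined to the transcripts give groups other than the lists above, examined after them. Among pathways with at least 15 listed genes, coding-labelled peaks were found on 12 of 17 genes of transcriptional misregulation in cancers and on 10 of 15 of lysine degradation, where histone methyltransferases such as KMT2A are filed. They were found on 16 of 28 genes of the tight junction pathway, 14 of 27 of the adherens junction pathway and 20 of 41 of focal adhesion. At the low end stood the spliceosome with 6 of 27, protein processing in the endoplasmic reticulum with 4 of 23 and oocyte meiosis with 2 of 15. The share over all symbols was 43.6%, with 54.1% on the plus strand and 32.3% on the minus strand. Pathways were not split by strand, so the part of strand in their order was not tested.

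In 6 cases a pair of symbols had coding-labelled peaks of identical length, summit, tags, fold and score. RGPD5 and RGPD6, near-identical copies of a RANBP2-like gene, shared 2 such peaks, of 44 tags and 13 tags. GCOM1 and MYZAP, which belong to 1 locus, shared a peak of 16 tags, and PI4K2B and RP11-717K11.2 one of 12. The other two pairs were of unrelated genes with few tags, such as PCMTD2 and PFKFB3 with 14, so such a match also occurs between genes that are no copies of each other. No source used here says if the reads behind them were shared.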
